A study of Mus musculus with 4 samples.

Results

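The genes described here are 48 genes of G2, mitosis and cytokinesis, the set of cyclins, kinases, spindle motors, kinetochore proteins and division factors that most dividing cells make late in the cell cycle. They were taken from a list of symbols, matched through GENCODE M21 names to the Ensembl gene IDs of a count table with 54532 genes, and kept where 20 or more counts were summed over all libraries. All 48 were kept, the lowest with 2458 counts (Pttg1), so none lay near the minimum. RNA was sequenced from cranial neural tubes dissected at embryonic day 10.5, in 2 Control and 2 DCKO libraries. The labels do not say whether libraries of a group came from separate embryos or pools, so p-values measure the spread between these libraries. The DCKO genotype was Lats1 flox/flox and Lats2 flox/flox with E2f1 Tg(Wnt1-cre)2Sor/+, a Cre transgene under Wnt1 control, which is expressed in dorsal neural tube cells and the crest cells they form. Controls lacked that transgene, and their Lats1 and Lats2 alleles are not stated. As Wnt1 control limits Cre to part of the tissue, DCKO libraries can also hold RNA of cells with intact Lats1 and Lats2. The share of such cells was not measured.

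Entry into mitosis is driven by cyclin-dependent kinase 1 with cyclins A and B. Spindle kinesins then separate the poles, kinetochores attach chromosomes to microtubules under a checkpoint, the anaphase-promoting complex releases the sister chromatids, and a contractile ring divides the cell. Transcripts of these proteins accumulate together late in the cycle. In the early neural tube they come mainly from neuroepithelial progenitors, which divide at the ventricular surface, while young neurons have left the cycle. LATS1 and LATS2 are the Hippo pathway kinases that hold back the growth-promoting coactivators YAP and TAZ.

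Most of the 48 genes had somewhat lower levels in DCKO than in Control, and the differences were small. In a quasi-likelihood test across 19207 genes with edgeR, 8 of the 48 fell and 0 rose at an adjusted p under 0.05. That is 16.7% lower, where 8.11% of all tested genes were lower and 8.93% higher. These 8 were Ckap2l, Kif14, Aspm, Nuf2, Cdc20, Mad2l1, Bub1b and Aurka. Log2 fold changes were below 0 for 45 of the 48, against 48.8% of all tested genes, with a median of -0.45 beside 0.025 for all tested genes. The fitted level in DCKO was 73.1% of Control at the median gene, and ranged from 48.8% for Ckap2l to 116% for Bub1. Both DCKO libraries lay below both Control libraries for 35 of the 48, against 32.9% of all tested genes, and above them for 0, while groups of 66.4% of all tested genes did not overlap in either direction. Calls depended on the libraries kept. In edgeR 0 members passed without Control 1 (5 at an unadjusted p under 0.05) and 0 without Control 2 (15 unadjusted), where 0.673% and 0.354% of all genes were still called lower. The number was 17 without DCKO 1, where 10.9% of all genes were lower, and 4 without DCKO 2, where 12.5% were, so that the share of members was then below that of all genes. The median log2 fold change of the members lay between -0.57 and -0.34 in these fits. Members lower numbered 14 in DESeq2, where 13.5% of all genes were lower, and 29 with library totals, where 19.5% were. With the replicate number as a block in edgeR 1 member was lower, where 4.04% of all genes were. The median was -0.80 with library totals as the only scaling, where all tested genes had a median of -0.32. The difference between both medians was -0.48 under either scaling. A change of scaling moves all genes by nearly the same amount, so this difference does not test the scaling.

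Within groups the members also differed together. The median member had 109 and 96.8 CPM (the count relative to the scaled library size) in Control 1 and 2 and 87.9 and 67.3 in DCKO 1 and 2. Control 2 was below Control 1 for 44 of the 48 genes, against 49.2% of all tested genes, and DCKO 2 was below DCKO 1 for 35, against 50.1%. DCKO 2 was the lowest library for 35 genes and Control 1 the highest for 40. The median gap between libraries of a pair was -0.17 on the log2 scale in Control and -0.19 in DCKO. Each was smaller than the median log2 fold change of -0.45 between groups, which compares fitted group levels. Single libraries were less separated by group. By the median member, Control 2 and DCKO 1 (96.8 and 87.9 CPM) were closer than DCKO 1 and DCKO 2 (87.9 and 67.3 CPM). Together the 48 genes took between 0.378% and 0.475% of all counts in DCKO and between 0.662% and 0.777% in Control. Without the ribosomal RNA region of chromosome 17, which took more of the DCKO counts, these shares were 0.542% to 0.631% and 0.755% to 0.896%.

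**Figure D1:**
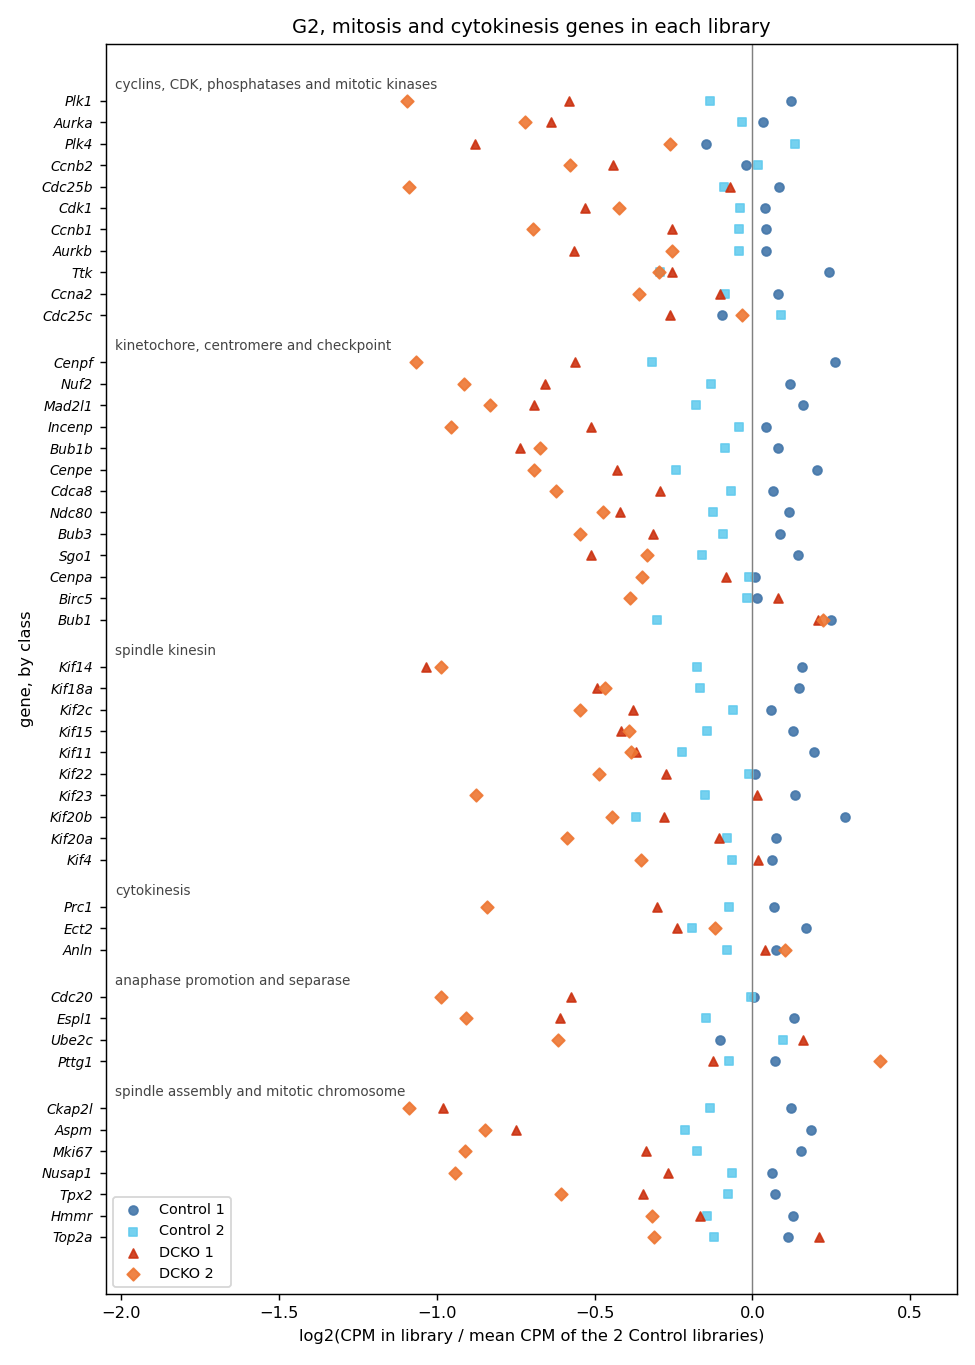
Level of each of the 48 genes in each library, as log2 of its CPM over the mean of the 2 Control libraries (horizontal axis), with genes in rows by class and 1 symbol per library. Triangles and diamonds (DCKO 1 and 2) lie left of both Control symbols for 35 genes, and for Cdc25b, Kif23, Ube2c and Top2a the DCKO symbols lie far apart.

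The libraries were checked as follows. Totals ranged from 41798361 to 55137810 counts, and every member had at least 452 counts in every library. Lats1 had Control counts of 2770 and 3318 and DCKO counts of 1201 and 1096 (log2 fold change -0.88, SE 0.23, adjusted p 0.0538), lower in both DCKO libraries without passing the test. Lats2 had Control counts of 1674 and 671 and DCKO counts of 849 and 1304, with groups that overlapped (log2 fold change 0.50, SE 0.41, adjusted p 0.426), and since the floxed exons are not given its total count does not test the deletion. Yap1 (-0.24) and Wwtr1 (0.25), which encode YAP and TAZ, did not pass either. Genes at the ribosomal RNA cluster on chromosome 17 took 12.4% to 13.2% of counts in Control and 24.7% to 30.3% in DCKO. Xist, transcribed from the inactive X, had Control counts of 10837 and 7786 and DCKO counts of 8 and 22, so sex and group cannot be told apart. Transgene and genotype likewise cannot be told apart, as only DCKO carried Cre. In dissected tissue, fewer cells of a type and less RNA per cell cannot be told apart.

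Markers of the tissue's cell types moved with the groups, and their part in the results was not tested. Among all tested genes 8.11% were called lower and 8.93% higher. Of 13 neural progenitor markers, 9 fell and 0 rose, with summed levels of 3634 to 4047 CPM in Control and 2263 to 2838 in DCKO. The only progenitor marker with a log2 fold change above 0 (0.70) was higher in both DCKO libraries than in both Controls, without passing. Of 15 neuron markers, 6 fell and 0 rose, with 1490 to 1832 CPM in Control and 368 to 969.9 in DCKO. Surface ectoderm (10 of 13 rose), cranial mesenchyme and neural crest (10 of 15), endothelial (6 of 9) and pericyte (4 of 8, with 1 that fell) markers rose, and 8 of 11 erythroid markers fell. Their summed levels were 18.9 to 22.8 CPM in Control and 302 to 316 in DCKO for surface ectoderm, 641 to 698 CPM in Control and 1923 to 3743 in DCKO for mesenchyme and crest, 167 to 180.3 CPM in Control and 494 to 863 in DCKO for endothelium and 189 to 196 CPM in Control and 413 to 666 in DCKO for pericytes. Erythroid markers summed to 2589 to 3836 CPM in Control and 665 to 908 in DCKO. None of 10 macrophage markers passed, with 32.4 to 45.6 CPM in Control and 34.7 to 107 in DCKO. No marker was at 0 in all libraries, but Krt5 and Krt14 of the surface ectoderm were at 0 in both Control libraries. The labelled neural tube was present in all libraries by these markers: Sox2, a progenitor transcription factor, had Control levels of 142 and 144 CPM and DCKO levels of 74.8 and 78.9 CPM, and fell.

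Many G2 and mitosis promoters carry CCAAT boxes, bound by the factor NF-Y, and a cell cycle homology region (CHR), bound by the MuvB complex that represses these genes in resting cells and activates them with B-MYB and FOXM1. Promoter windows from RefSeq (GRCm38.p6, 250 bases before to 50 after the annotated start) were matched by symbol for 42 of the 48 genes. The letters TTTGAA or TTCGAA, used for the CHR, stood on either strand in 33 of the 42 (first window of each gene), against 19.4% of the first windows of all 27025 genes. CCAAT stood on either strand in 30, against 37.9%, and both kinds of letters in 28, against 7.70%. Of the S phase and replication genes with a window, 5 of 29 held both, and of the other mitosis genes 14 of 31. A CCAAT word and a CHR word can overlap by at most 1 letter. RefSeq and GENCODE starts differ for some genes: the 150 bases before the RefSeq start lay wholly inside the GENCODE gene for 5 members, Kif14, Kif2c, Cdca8, Pttg1 and Kif4. For Cdc20 and Cdk1 the last 9 and 26 of them did. A match is a description of the letters and not evidence of binding.

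The 150 bases before the start are shown for 6 genes with log2 fold changes below 0. Ckap2l had the largest fall, and Aurka, Cdc20 and Nuf2 were among the other genes that fell. Cdk1 lay near the median of the 48, and Top2a, the most abundant member, near 0. Members with a log2 fold change above 0 are not shown. Capitals mark the CHR words (TTTGAA or TTCGAA) and CCAAT words on either strand, and sequences run 5′ to 3′ along the gene.
Ckap2l: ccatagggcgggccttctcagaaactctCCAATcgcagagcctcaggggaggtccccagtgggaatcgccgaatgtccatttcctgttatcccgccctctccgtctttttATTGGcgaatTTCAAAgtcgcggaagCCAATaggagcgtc
Aurka: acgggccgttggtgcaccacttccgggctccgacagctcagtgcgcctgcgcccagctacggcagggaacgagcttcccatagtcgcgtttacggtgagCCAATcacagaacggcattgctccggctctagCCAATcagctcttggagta
Cdc20: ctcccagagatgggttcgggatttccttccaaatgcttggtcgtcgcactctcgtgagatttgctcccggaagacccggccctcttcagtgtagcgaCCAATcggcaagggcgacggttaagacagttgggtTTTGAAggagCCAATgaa
Nuf2: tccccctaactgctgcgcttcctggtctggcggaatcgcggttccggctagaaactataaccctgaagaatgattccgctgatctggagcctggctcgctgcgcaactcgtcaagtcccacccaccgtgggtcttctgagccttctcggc
Cdk1: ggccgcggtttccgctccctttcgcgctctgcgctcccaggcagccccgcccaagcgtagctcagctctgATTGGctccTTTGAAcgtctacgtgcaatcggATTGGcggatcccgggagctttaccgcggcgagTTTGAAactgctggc
Top2a: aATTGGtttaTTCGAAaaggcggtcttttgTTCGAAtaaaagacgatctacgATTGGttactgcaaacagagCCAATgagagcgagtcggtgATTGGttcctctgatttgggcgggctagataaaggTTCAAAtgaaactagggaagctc
In GRCm38 these are chr2:129297213-129297362 (minus strand), chr2:172370571-172370720 (minus), chr4:118437344-118437493 (minus), chr1:169531465-169531614 (minus), chr10:69352913-69353062 (minus) and chr11:99024190-99024339 (minus). Cdc20 shows the compact layout, with TTTGAA beginning 18 bases before the start and CCAAT 53 and 8 bases before it. Ckap2l holds the reverse complement TTCAAA 30 bases before the start, and Aurka holds CCAAT 51 and 19 bases before it, with its TTTGAA after the start. Cdk1 holds TTTGAA 71 and 15 bases before the start, and Top2a holds 3 CHR words and 4 CCAAT words in the stretch shown. Nuf2 holds none of these letters in its window, and Top2a holds the most words of these 6 stretches. Among the 28 genes with both kinds of letters 6 fell, with a median log2 fold change of -0.46. Of the 5 with CHR letters only 0 fell (median -0.40), and of the 2 with CCAAT only 0 fell (median -0.51). Of the 7 with neither, 2 fell, and their median was -0.54. Among all tested genes 8.11% were called lower. Whether these letters bear on the differences was not tested.

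The G2/M engine comprises cyclins A2, B1 and B2, their kinase CDK1, the CDC25 phosphatases that activate it, and the Aurora, Polo-like and TTK kinases. Of these 11 genes, 1 fell and 0 rose, all 11 log2 fold changes were below 0, and 8 had both DCKO libraries below both Controls, beside 8.11% called lower and 32.9% below both Controls among all tested genes, with a median of -0.48. Aurka (ENSMUSG00000027496, chromosome 2, 172356190 to 172370535 on GRCm38), the spindle pole kinase, had levels of 103 CPM in Control 1, 98.1 in Control 2, 64.5 in DCKO 1 and 60.9 in DCKO 2. It fell by 0.68 on the log2 scale (SE 0.152, adjusted p 0.0382 in edgeR), with means going from 100.4 ± 3.24 CPM (SD, n = 2) across Control to 62.7 ± 2.53 across DCKO, and the libraries of each group lay close together. Its call was lost without Control 1, without Control 2 or without DCKO 2. Without a single library its log2 fold change ranged from -0.74 to -0.64. Plk1, the Polo kinase that acts from mitotic entry to cytokinesis, had Control levels of 146 and 122 CPM and DCKO levels of 89.4 and 62.6 CPM, a lower mean by a larger amount but a wider spread (log2 fold change -0.82, SE 0.23, adjusted p 0.0631).

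The cyclin levels of the groups did not overlap, yet none passed the test. Ccna2, cyclin A2, had Control levels of 262 and 233 CPM and DCKO levels of 230.3 and 193 CPM, a log2 fold change of -0.23 (adjusted p 0.394, SE 0.17). Ccnb1, cyclin B1, had Control levels of 138 and 130.4 CPM and DCKO levels of 113 and 83 CPM (log2 fold change -0.46, SE 0.20, adjusted p 0.165), and Ccnb2 had Control levels of 97.4 and 100.03 CPM and DCKO levels of 72.7 and 66.1 CPM (log2 fold change -0.51, SE 0.15, adjusted p 0.0758). Cyclin A2 was the nearest of these to its Control level, with DCKO 1 just under Control 2. Cdk1, the kinase they activate, had Control levels of 128 and 121 CPM and DCKO levels of 86.4 and 93.1 CPM (log2 fold change -0.48, SE 0.15, adjusted p 0.0866), but on the authors' deposited TPM (a level scaled for transcript length and library size) its log2 difference was 0.14. Cdk1 was listed there at 61.4 and 49.9 TPM for Control and 36.6 and 102 for DCKO, so only DCKO 2 was high. Its direction depended on which deposited table was used.

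The phosphatase Cdc25b separated the DCKO libraries more than the groups, with Control levels of 126 and 112 CPM and DCKO levels of 114 and 56 CPM and a log2 fold change of -0.49 (adjusted p 0.35, SE 0.34). Its DCKO 1 value lay inside the Control range. Cdc25c had Control levels of 32.2 and 36.6 CPM and DCKO levels of 28.7 and 33.6 CPM, with overlapping groups. Aurkb, the kinase of the chromosomal passenger complex, had Control levels of 74.4 and 70.1 CPM and DCKO levels of 48.8 and 60.5 CPM, and Plk4, which starts centriole duplication, Control levels of 44.5 and 54.1 CPM and DCKO levels of 26.8 and 41.2 CPM. In both of these DCKO 1 was the lowest library, in contrast to most members. Ttk, a checkpoint kinase, had Control levels of 53.2 and 36.6 CPM and DCKO levels of 37.6 and 36.6 CPM, so only Control 1 stood apart. Its log2 fold change of -0.28 was 0.012 without Control 1.

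Kinetochore, centromere and checkpoint genes included 3 of the 8 falls. Of 13 genes, 3 fell and 0 rose, 12 had log2 fold changes below 0, and 11 had both DCKO libraries below both Controls, against the same 8.11% and 32.9% of all tested genes, with a median of -0.45. Bub1b (ENSMUSG00000040084, chromosome 2, 118598211 to 118641591), which encodes the checkpoint protein BUBR1, had levels of 196 CPM in Control 1, 175 in Control 2, 111 in DCKO 1 and 116 in DCKO 2. It fell by 0.70 on the log2 scale (SE 0.156, adjusted p 0.0377 in edgeR), with DCKO libraries that nearly coincided. Its call was lost without Control 1, without Control 2 or without DCKO 1. Without a single library its log2 fold change ranged from -0.82 to -0.62. Mad2l1 (ENSMUSG00000029910, chromosome 6, 66535390 to 66547220), the checkpoint protein MAD2, had Control levels of 104 and 81.8 CPM and DCKO levels of 57.4 and 52.1 CPM and a log2 fold change of -0.76 (adjusted p 0.0473, SE 0.19). Nuf2 (ENSMUSG00000026683, chromosome 1, 169497934 to 169531464), a subunit of the NDC80 complex that grips microtubules, had Control levels of 75.3 and 63.3 CPM and DCKO levels of 43.9 and 36.8 CPM (log2 fold change -0.78, SE 0.18, adjusted p 0.0432). Mad2l1 and Nuf2 missed the threshold without DCKO 2, without Control 1 or without Control 2. Without a single library their log2 fold changes ranged from -0.95 to -0.59 and from -0.93 to -0.66.

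Bub1, a checkpoint kinase paralogous to Bub1b, did not share its pattern. It had Control levels of 108 and 73.5 CPM and DCKO levels of 105 and 106 CPM, so that DCKO lay within the Control range (log2 fold change 0.21, SE 0.22, adjusted p 0.527), and its log2 fold change was -0.067 without Control 2. The ratio of Bub1b to Bub1 counts within a library, which needs no scaling between libraries, was 1.82 and 2.37 across Control and 1.06 and 1.1 across DCKO. Bub3, their binding partner, had Control levels of 142 and 125 CPM and DCKO levels of 107 and 91.4 CPM (log2 fold change -0.43, SE 0.17, adjusted p 0.141).

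Among other outer kinetochore genes, Cenpf, a large protein of the kinetochore corona, had Control levels of 325 and 217 CPM and DCKO levels of 184 and 129 CPM (log2 fold change -0.79, SE 0.27, adjusted p 0.103). Its Control libraries were far apart, with a log2 ratio of Control 2 to Control 1 of -0.58. Cenpe, the kinetochore kinesin, had Control levels of 163 and 119 CPM and DCKO levels of 105 and 87.4 CPM, and Ndc80 had log2 fold change -0.45 (adjusted p 0.12, SE 0.17). Cenpa, the histone H3 variant of centromeres, had Control levels of 77.3 and 76.3 CPM and DCKO levels of 72.4 and 60.2 CPM, a small difference (log2 fold change -0.21, SE 0.17, adjusted p 0.414), and Sgo1, the protector of centromeric cohesion, had a log2 fold change of -0.42.

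The chromosomal passenger complex of Aurkb, Incenp, Birc5 and Cdca8 was uneven. Incenp, its scaffold, had Control levels of 179 and 169 CPM and DCKO levels of 122 and 89.8 CPM (log2 fold change -0.72, SE 0.20, adjusted p 0.0633). Cdca8, borealin, had Control levels of 151 and 138 CPM and DCKO levels of 118 and 93.7 CPM (log2 fold change -0.45, SE 0.18, adjusted p 0.143). Birc5, survivin, had Control levels of 90.7 and 88.8 CPM and DCKO levels of 94.9 and 68.5 CPM, overlapping between groups with a log2 fold change of -0.14, which was 0.078 without DCKO 2. The scaffold was thus lower in both DCKO libraries, and survivin in DCKO 2 alone.

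Of 10 spindle kinesins, 1 fell and 0 rose. All 10 log2 fold changes were below 0, 7 had both DCKO libraries below both Controls (8.11% and 32.9% of all tested genes were called lower and below both Controls), and the median was -0.38. Kif14 (ENSMUSG00000041498, chromosome 1, 136466343 to 136531511), a kinesin of the central spindle needed for cytokinesis, had levels of 40.2 CPM in Control 1, 31.9 in Control 2, 17.6 in DCKO 1 and 18.2 in DCKO 2. The DCKO libraries nearly coincided, and the fitted level was 49.6% of Control. The mean went from 36 ± 5.83 CPM (SD, n = 2) across Control to 17.9 ± 0.417 across DCKO, a log2 fold change in edgeR of -1.01 (adjusted p 0.0261, SE 0.19). It was also the least abundant member per transcript length, at a mean of 6.84 TPM over the libraries, and on log2(TPM + 1) its adjusted p was 0.174 in limma. Its call was lost without Control 1 or without Control 2. Without a single library its log2 fold change ranged from -1.20 to -0.84.

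No other kinesin passed. Kif11, the plus-end motor that separates spindle poles, had Control levels of 176 and 132 CPM and DCKO levels of 119 and 118 CPM (log2 fold change -0.38, SE 0.19, adjusted p 0.22), and Kif15, which backs it up, Control levels of 134 and 111 CPM and DCKO levels of 92.1 and 93.8 CPM. For both genes the DCKO libraries were close and Control 2 lay between them and Control 1. Kif20a, a motor of the central spindle, had Control levels of 134 and 120.1 CPM and DCKO levels of 118 and 84.4 CPM. Kif22, a chromosome arm motor, had Control levels of 129 and 127 CPM and DCKO levels of 106 and 91.5 CPM (log2 fold change -0.38, SE 0.16, adjusted p 0.158), and Kif2c, a microtubule depolymerase at centromeres, Control levels of 91 and 83.9 CPM and DCKO levels of 67.2 and 59.8 CPM (log2 fold change -0.46, SE 0.16, adjusted p 0.104). Kif18a, which dampens chromosome oscillation, had Control levels of 36 and 29 CPM and DCKO levels of 23.1 and 23.5 CPM (log2 fold change -0.48, SE 0.18, adjusted p 0.124). All 3 of Kif22, Kif2c and Kif18a were lower in both DCKO libraries.

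Kif4, the single X-linked member, had Control levels of 104 and 95.5 CPM and DCKO levels of 101 and 78.2 CPM, with overlapping groups (log2 fold change -0.15, SE 0.19, adjusted p 0.596) in a comparison where sex and group cannot be told apart. Its log2 fold change was 0.017 without DCKO 2. Kif23, the motor subunit of centralspindlin, and Kif20b overlapped between groups too. Kif23 had Control levels of 83 and 68.2 CPM and DCKO levels of 76.4 and 41.2 CPM: DCKO 2 was low and DCKO 1 was not. Its log2 fold change was -0.88 without DCKO 1 and 0.013 without DCKO 2.

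The class of 3 cytokinesis genes had the class median nearest to 0, a log2 fold change of -0.18 that was the value of Ect2. None passed the threshold, and at an unadjusted p under 0.05 in edgeR the number was also 0. Kif14, a kinesin needed for cytokinesis, was counted with the spindle kinesins. So were the central spindle motors Kif20a and Kif23, which did not pass (log2 fold changes -0.33 and -0.36). Anln, anillin of the contractile ring, had Control levels of 83.6 and 75.2 CPM and DCKO levels of 81.6 and 85.4 CPM, and the groups overlapped (log2 fold change 0.073, SE 0.16, adjusted p 0.774). Ect2, the exchange factor that activates RhoA at the cell equator, had Control levels of 109.8 and 85.4 CPM and DCKO levels of 82.7 and 90 CPM, likewise overlapping (log2 fold change -0.18, SE 0.19, adjusted p 0.539). Prc1, which bundles microtubules of the central spindle, had Control levels of 122 and 110.03 CPM and DCKO levels of 93.8 and 64.6 CPM and lay lower in both DCKO libraries (log2 fold change -0.55, SE 0.22, adjusted p 0.144). The ratio of Kif14 to Anln counts was 0.48 and 0.424 across Control and 0.216 and 0.213 across DCKO. This pair was chosen after its values were seen, and the ratio restates the difference between both fold changes.

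**Figure D2:**
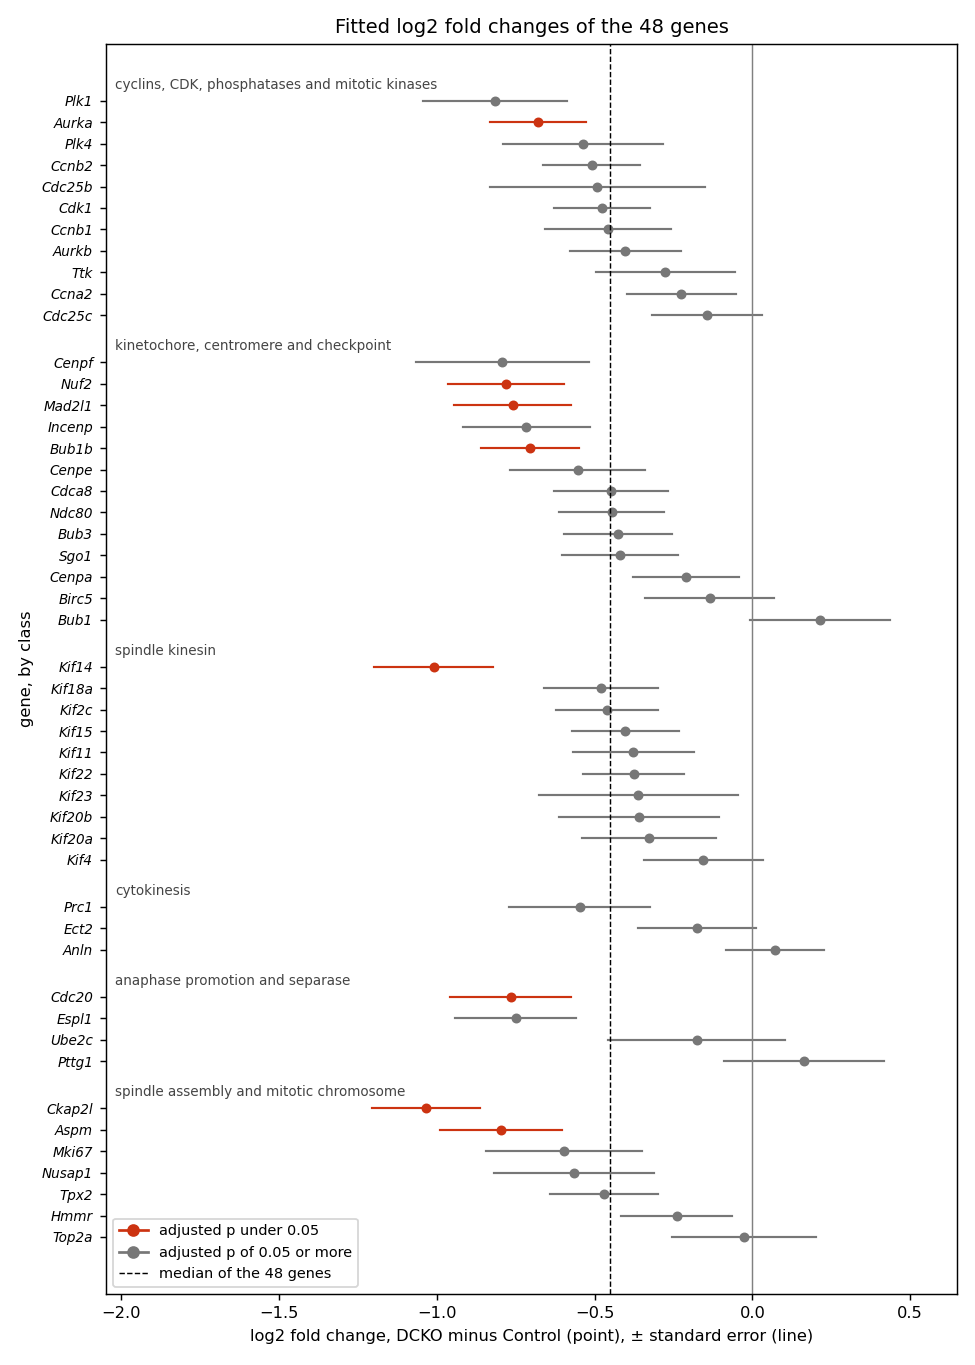
Fitted log2 fold change of each of the 48 genes, DCKO minus Control (horizontal axis), with bars of 1 standard error and genes in rows by class. The 8 genes with an adjusted p under 0.05 (red) have log2 fold changes between -1.03 and -0.68, the dashed line marks the median of -0.45, and Bub1, Anln and Pttg1 lie right of 0 with this scaling and left of it with library totals.

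Of the 4 genes of anaphase, 1 fell and 0 rose, 3 had log2 fold changes below 0, and 2 had both DCKO libraries below both Controls. Among all tested genes 8.11% were called lower and 32.9% lay below both Controls. The median of the 4 genes was -0.46. Cdc20 (ENSMUSG00000006398, chromosome 4, 118432901 to 118437352), the activator of the anaphase-promoting complex, had levels of 183 CPM in Control 1, 181 in Control 2, 122 in DCKO 1 and 91.9 in DCKO 2 and fell by 0.77 on the log2 scale (SE 0.192, adjusted p 0.0499 in edgeR). Its adjusted p lay just inside the threshold, and reached 0.0582 with upper quartile scaling and 0.0508 without X- and Y-linked genes. Its call was also lost without Control 1, without Control 2 or without DCKO 2. Without a single library its log2 fold change ranged from -0.99 to -0.58. Its exons overlap those of Elovl1 on the other strand. Espl1, separase, the protease that cuts cohesin, had Control levels of 89.9 and 74.1 CPM and DCKO levels of 53.7 and 43.8 CPM and missed the threshold by little (log2 fold change -0.75, SE 0.19, adjusted p 0.0525).

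Ube2c, the ubiquitin-conjugating enzyme of the same complex, had Control levels of 168 and 193 CPM and DCKO levels of 201 and 118 CPM, with DCKO 1 the highest library and DCKO 2 the lowest (log2 fold change -0.18, SE 0.28, adjusted p 0.689). Without DCKO 2 its log2 fold change was 0.16. The ratio of Cdc20 to Ube2c counts was 1.09 and 0.941 across Control and 0.607 and 0.782 across DCKO, lower in both DCKO libraries. Pttg1, securin, the inhibitor of separase, was the member with the fewest counts, with Control levels of 13 and 11.7 CPM and DCKO levels of 11.3 and 16.3 CPM (log2 fold change 0.16, SE 0.25, adjusted p 0.681).

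Genes of spindle assembly and mitotic chromosomes held the member with the largest fall. Of 7 genes 2 fell and 0 rose, beside 8.11% called lower among all tested genes. All 7 log2 fold changes were below 0, and the median was -0.56. Ckap2l (ENSMUSG00000048327, chromosome 2, 129268210 to 129297212), a spindle protein also known as radmis and found in neural progenitors, had levels of 86.4 CPM in Control 1, 72.2 in Control 2, 40.2 in DCKO 1 and 37.3 in DCKO 2. The mean went from 79.3 ± 10 CPM (SD, n = 2) across Control to 38.7 ± 2.03 across DCKO, and edgeR gave a log2 fold change of -1.03 (adjusted p 0.0202, SE 0.17). Its exons overlap Gm14024 on the other strand. Its call was lost without Control 1 or without Control 2. Without a single library its log2 fold change ranged from -1.19 to -0.91. Aspm (ENSMUSG00000033952, chromosome 1, 139454772 to 139494091), the spindle pole protein whose loss causes microcephaly, had Control levels of 122 and 92.7 CPM and DCKO levels of 64 and 59.8 CPM and log2 fold change -0.80 (adjusted p 0.0469, SE 0.19). Its call was lost without Control 1, without Control 2 or without DCKO 2. Without a single library its log2 fold change ranged from -1.02 to -0.59.

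Top2a, topoisomerase II alpha, and Mki67, the Ki-67 coat of mitotic chromosomes, were the members with the most counts. Top2a had Control levels of 881 and 749.5 CPM and DCKO levels of 944 and 657 CPM: DCKO 1 was the highest library and DCKO 2 the lowest, and the log2 fold change was -0.027 (adjusted p 0.945, SE 0.23). With upper quartile scaling it was 0.018. Mki67 had Control levels of 650.02 and 517 CPM and DCKO levels of 461 and 310.2 CPM (log2 fold change -0.60, SE 0.25, adjusted p 0.15), lower in both DCKO libraries. Within a library, the ratio of Mki67 to Top2a counts was 0.738 and 0.69 across Control and 0.489 and 0.472 across DCKO. For Ckap2l to Top2a it was 0.098 and 0.0964 across Control and 0.0426 and 0.0567 across DCKO, and for Aurka to Top2a 0.117 and 0.131 across Control and 0.0683 and 0.0926 across DCKO. All 3 ratios, chosen after the values were seen, were lower in both DCKO libraries.

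Tpx2, which activates Aurora A on the spindle, had Control levels of 239.6 and 216 CPM and DCKO levels of 179 and 149 CPM (log2 fold change -0.47, SE 0.17, adjusted p 0.114). Nusap1, a microtubule bundler near chromosomes, had Control levels of 113 and 103 CPM and DCKO levels of 89.7 and 56.2 CPM (log2 fold change -0.56, SE 0.25, adjusted p 0.175). Hmmr, a spindle pole protein, had Control levels of 96.4 and 79.8 CPM and DCKO levels of 78.6 and 70.6 CPM (log2 fold change -0.24, SE 0.18, adjusted p 0.372). In each of these DCKO 2 was the lowest library.

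The members differed in how the DCKO libraries compared with each other. The log2 ratio of DCKO 2 to DCKO 1 was -1.02 for Cdc25b, -0.89 for Kif23, -0.78 for Ube2c and -0.68 for Nusap1. DCKO 2 was above DCKO 1 for Plk4 (0.62), Pttg1 (0.53) and Aurkb (0.31). For Kif14 (0.048), Bub1b (0.061), Kif11 (-0.016) and Bub1 (0.016) the ratio was near 0. Standard errors of the 48 log2 fold changes ran from 0.15 to 0.34, the widest for Cdc25b.

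**Figure D3:**
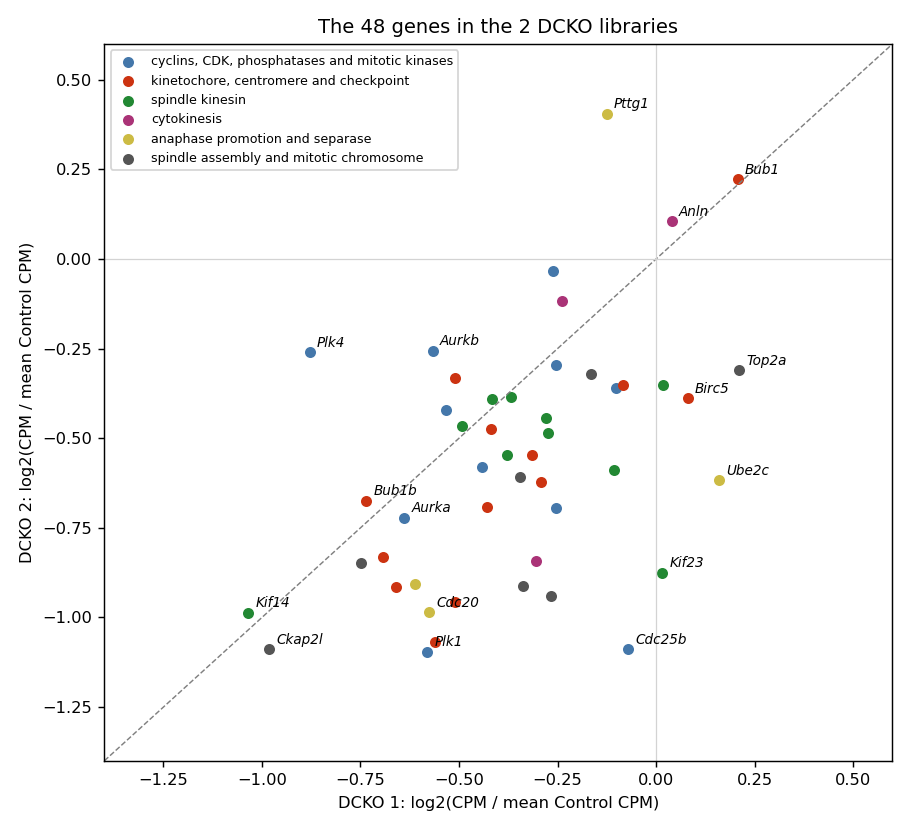
Each of the 48 genes by its level in DCKO 1 (horizontal axis) and DCKO 2 (vertical axis), both as log2 of CPM over the Control mean, coloured by class. Points under the dashed line of equality (35 of 48) were lower in DCKO 2; Cdc25b, Kif23 and Ube2c lie farthest below it, while Kif14, Bub1b and Bub1 lie near it.

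On the length-scaled TPM, 47 of the 48 genes had a mean above 11.2 TPM, the median of the 14784 genes with a mean of at least 1. The median member had 46.6. Top2a led with a mean of 313 TPM, followed by Ube2c (272), Birc5 (139), Cdc20 (129.6) and Ccna2 (124). Kif18a (13.5) and Kif20b (13.7) came just above Kif14 at the low end. Across the 48 genes, mean TPM and log2 fold change had a Spearman's rho of 0.12, and exon length and log2 fold change one of -0.09. These are descriptions over genes measured in the same libraries.

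In the authors' deposited table of differential expression, 10 of the 48 genes were lower at a false discovery rate under 0.05 and 0 higher, against 13.2% lower and 15.6% higher among its 12574 genes. Of these 10, 7 were also called lower in the present fit, and Aurka, called here, had a false discovery rate of 0.0579 in the authors' deposited table. The same table gave a median log2 fold change of -0.40 for the 48 genes, and -0.98 for Ckap2l, -0.95 for Kif14 and -0.76 for Plk1.

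Several transcription factors of the cell cycle fell. Of 21 regulators of G2/M transcription, 7 fell and 0 rose, with a median log2 fold change of -0.61. Among all tested genes 8.11% were called lower and 8.93% higher. Foxm1, which activates late mitotic genes, had Control levels of 74.7 and 77.9 CPM and DCKO levels of 46.7 and 44.4 CPM (log2 fold change -0.74, SE 0.15, adjusted p 0.0309), and its exons overlap the models Gm44596 and Tex52. Mybl2, B-MYB, had Control levels of 73.2 and 71.2 CPM and DCKO levels of 41.2 and 47.6 CPM (log2 fold change -0.70, SE 0.16, adjusted p 0.0412). The largest falls were those of E2f2 and E2f3, activators of the E2F family. E2f2 had Control levels of 30.8 and 31.5 CPM and DCKO levels of 3.85 and 2.38 CPM (log2 fold change -3.32, SE 0.29, adjusted p 0.00761) and E2f3 Control levels of 74.7 and 71.4 CPM and DCKO levels of 19.9 and 21.5 CPM (log2 fold change -1.82, SE 0.16, adjusted p 0.00743). Tfdp1, the partner of E2F proteins, had Control levels of 139.7 and 128 CPM and DCKO levels of 79.3 and 64.9 CPM (log2 fold change -0.89, SE 0.18, adjusted p 0.0288). E2f1, whose symbol heads the label of the Cre transgene, E2f1 Tg(Wnt1-cre)2Sor/+, had Control levels of 46.5 and 50.2 CPM and DCKO levels of 33 and 18.5 CPM. It did not pass (log2 fold change -0.91, SE 0.29, adjusted p 0.0891). As only DCKO carried that transgene, its effect on E2f1 or the 48 genes and that of the Lats1 and Lats2 genotype cannot be told apart.

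Other parts of the mitotic machinery were tested in the same fit, where 8.11% of all tested genes were called lower and 8.93% higher. Of 40 other mitosis genes, 9 fell and 0 rose (median -0.53), led by Haspin, a histone H3 kinase (log2 fold change -1.81, SE 0.22, adjusted p 0.0111), Pimreg (log2 fold change -0.97, SE 0.15, adjusted p 0.0179) and Wee1, the kinase that inhibits CDK1 (log2 fold change -1.31, SE 0.22, adjusted p 0.0211). Of 28 other kinetochore genes, 5 fell and 0 rose (median -0.46), led by the constitutive centromere proteins Cenpi (log2 fold change -1.54, SE 0.23, adjusted p 0.0167), Cenpl (log2 fold change -1.39, SE 0.24, adjusted p 0.0214) and Cenpc1 (log2 fold change -0.84, SE 0.16, adjusted p 0.0275). Of 17 condensin and cohesin genes 0 passed in edgeR, with a median of -0.19 and 3 lower at an unadjusted p under 0.05. Of 15 core subunits of the anaphase-promoting complex 1 rose, Anapc16 (log2 fold change 0.93, SE 0.21, adjusted p 0.0392), and 0 fell, with a median of -0.18.

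Of 36 S phase and replication genes, 15 fell and 0 rose, with a median of -0.55. Of the 48 genes 8 fell, and of all tested genes 8.11% were called lower. Ccne1, cyclin E1, had Control levels of 62 and 54.4 CPM and DCKO levels of 12.1 and 17.2 CPM (log2 fold change -1.99, SE 0.23, adjusted p 0.0101), Rfc3 of the clamp loader Control levels of 59.6 and 55 CPM and DCKO levels of 17.8 and 23.5 CPM (log2 fold change -1.47, SE 0.20, adjusted p 0.0138), and Gins3 of the replicative helicase Control levels of 18.6 and 17.2 CPM and DCKO levels of 6.42 and 6.52 CPM (log2 fold change -1.47, SE 0.20, adjusted p 0.015). Summed levels of both lists were close. The 48 genes summed to 107% and 92.7% of the Control mean in Control and 83.9% and 67% in DCKO, and the S phase genes to 104% and 95.8% of the Control mean in Control and 78.3% and 69.1% in DCKO. The ratio of their summed counts, which needs no scaling, was 1.18 and 1.11 across Control and 1.23 and 1.11 across DCKO, with groups that overlapped.

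Summed counts of the 48 genes over those of the neural progenitor markers gave 1.88 and 1.46 across Control and 1.89 and 1.89 across DCKO. DCKO stood at the level of Control 1 and above Control 2. Progenitor markers summed to 94.6% and 105% of the Control mean in Control and 73.9% and 58.9% in DCKO. Over neuron markers the ratio was 4.6 and 3.23 across Control and 5.52 and 11.6 across DCKO, higher in both DCKO libraries. Such sums are led by their most abundant genes, and the marker medians of -1.41 for progenitors and -1.36 for neurons were further below 0 than that of the 48 genes.

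**Figure D4:**
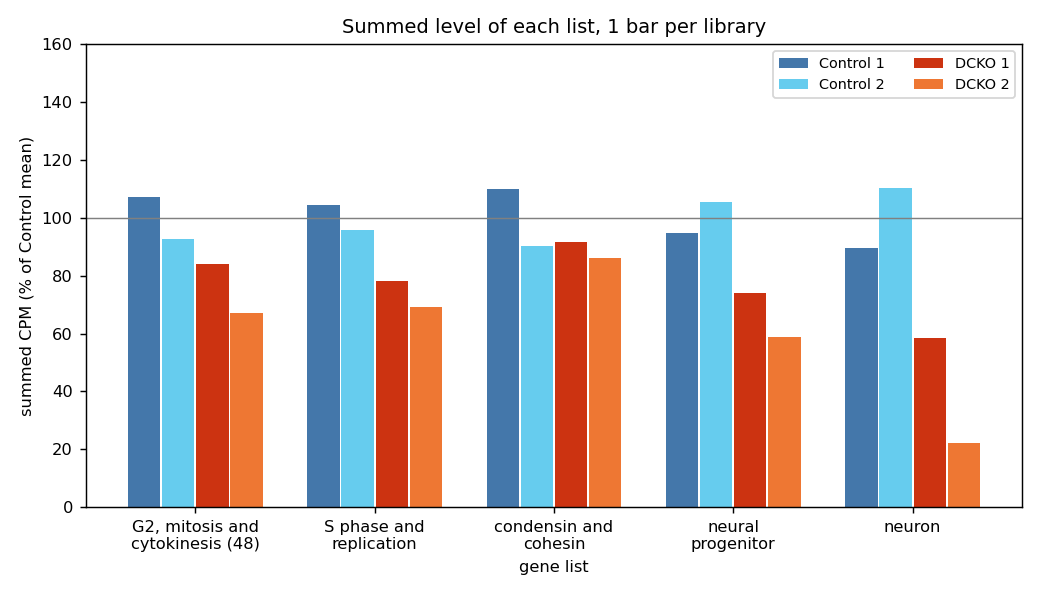
Summed CPM of the 48 genes and of 4 other lists in each library, as a percentage of the mean of the 2 Control libraries (vertical axis), 1 bar per library. The 48 genes and the S phase genes stand at similar heights in DCKO (83.9% and 67.0%, 78.3% and 69.1%), with condensin and cohesin genes higher and neuron markers down to 22.1% in DCKO 2.

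Genes of cell cycle exit went both ways. Of 12 tested, 4 rose and 2 fell, with a median log2 fold change of 0.47. Among all tested genes 8.93% were called higher and 8.11% lower. Ccng1, cyclin G1, a p53 target, had Control levels of 42.4 and 34.3 CPM and DCKO levels of 108 and 115 CPM (log2 fold change 1.54, SE 0.18, adjusted p 0.0107). Cdkn1a, the CDK inhibitor p21, had Control levels of 9.23 and 7.41 CPM and DCKO levels of 32.3 and 50.7 CPM (log2 fold change 2.32, SE 0.28, adjusted p 0.0117). Cdkn2b, p15, had 0 counts in both Control libraries and 18 and 15 in DCKO. The falls were those of Btg2, an antiproliferative gene of neurogenic progenitors, with Control levels of 61.7 and 74.8 CPM and DCKO levels of 12.4 and 15.1 CPM (log2 fold change -2.31, SE 0.20, adjusted p 0.00743), and of Cdkn2c, the inhibitor p18, with Control levels of 16.1 and 23.1 CPM and DCKO levels of 2.7 and 1.81 CPM (log2 fold change -3.12, SE 0.33, adjusted p 0.00919).

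**Figure D5:**
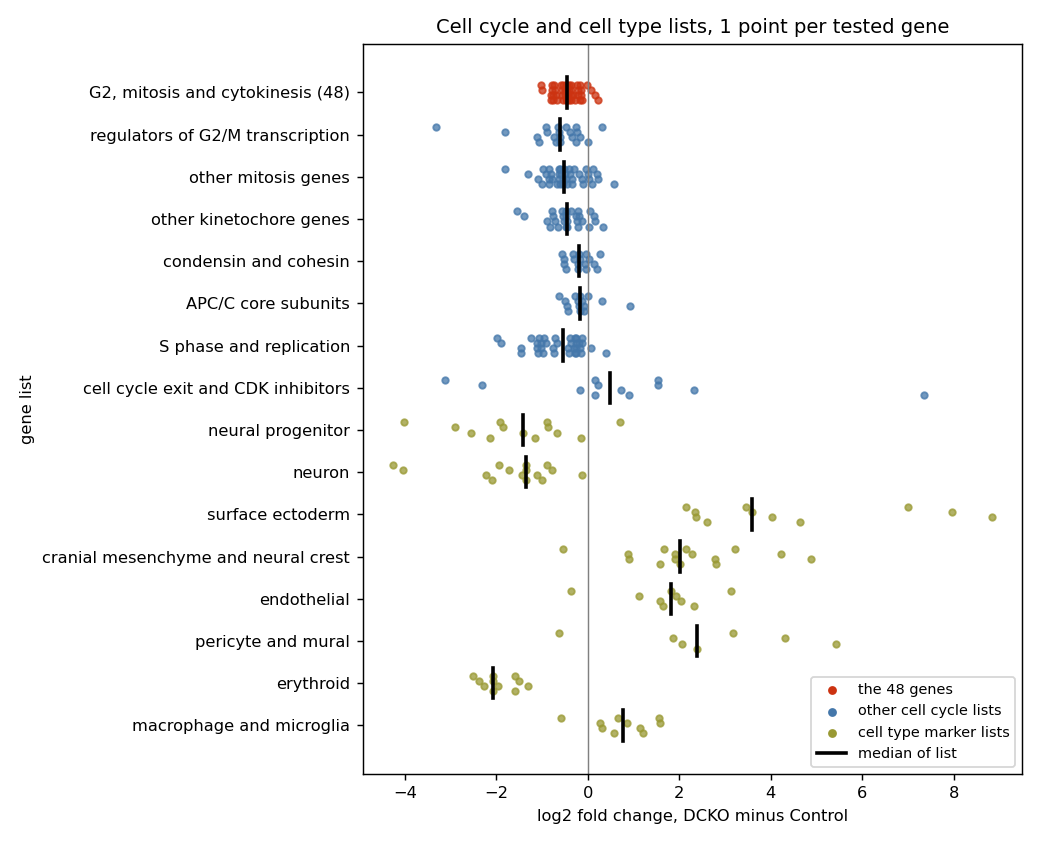
Log2 fold change, DCKO minus Control (horizontal axis), of every tested gene in the 48-gene set, 7 other cell cycle lists and 8 cell type marker lists (rows), with black bars at list medians. The 48 genes form a narrow group around -0.45, near the other mitosis, kinetochore and S phase lists and nearer to 0 than neural progenitor (-1.41) or surface ectoderm (3.60) markers.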

How the data were processed

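Gene counts came from the authors' deposited table of whole-number counts for each Ensembl gene and library. TPM and the authors' log2 fold changes, p-values and false discovery rates came from their deposited tables. Per the submitters' processing notes, TopHat2 2.1.1, StringTie, edgeR 3.16.5, limma 3.30.13, R 3.3.2, mm10 and GRCm38 were named without roles. Strand use in counting is not given in the sources used here, so genes that overlap another gene (15 of the 48) are uncertain. Counts were filtered with filterByExpr (minimum count 10, minimum total 15), scaled by TMM, and tested with edgeR 4.0.16 in R 4.3.3 (quasi-likelihood, group as the only term, 2 residual degrees of freedom, Benjamini-Hochberg over 19207 genes, two-sided). Standard errors of the edgeR fits were taken as the absolute log2 fold change divided by the square root of the quasi-likelihood F statistic. Alternatives used DESeq2 1.42.0 and limma 3.58.1. Scripts were tested on simulated data.

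Members, classes and lists were chosen with earlier results of these data known. Every member could be named; in each class, values per library were given for the 6 with the highest mean CPM and the 4 with the smallest p-values, and in other lists for up to 3 called genes per direction, plus Lats1, Lats2, E2f1, Foxm1 and Mybl2. Values of other members, and the ratios between members, were added after they were seen.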

Additional observations from a re-analysis of the deposited data

How the results depend on the processing

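The 8 falls kept their call with DESeq2 size factors, library totals, no filter, DESeq2, limma-voom and without the ribosomal cluster, 7 of them with upper quartile scaling (Cdc20 lost) and 7 without X- and Y-linked genes (Cdc20 lost), 5 on filtered log2(TPM + 1) or log2(TPM + 0.1), and 0 on unfiltered log2(TPM + 1). No member rose in any of these fits. Members lower numbered 29 with library totals, 14 with DESeq2, 0 on unfiltered log2(TPM + 1) in limma (23 at an unadjusted p under 0.05), and 0 to 17 without a single library. The members' median was -0.80 with library totals and lay between -0.57 and -0.34 without a single library. Leaving out 1 library leaves a lone library in its group, assumed to vary like the other pair.

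Over all genes, 3744 were lower with library totals (75.4% of calls, against 47.6%, and 62.8% on filtered log2(TPM + 1)). DESeq2 gave 2602 higher and 2594 lower, and filtered log2(TPM + 1) and log2(TPM + 0.1) gave 1007 and 958 higher. On unfiltered log2(TPM + 1) 0 were higher and 0 lower. Without a single library, 155 to 2619 were higher and 72 to 2565 lower, where the full fit had 1716 and 1558. The cause of these differences was not tested.

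Whether the replicate numbers pair the libraries is not known. The deviations of same-numbered libraries had a correlation of -0.037 across genes, which cannot exclude a pairing. A fit with the replicate block gave 1 member lower (Ckap2l, adjusted p 0.0428), and 1002 genes higher and 776 lower.

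The direction of 12 members turned in at least 1 of these fits. Log2 fold changes were -0.14 for Bub1, -0.28 for Anln and -0.19 for Pttg1 with library totals, and 0.018 for Top2a with upper quartile scaling. On log2(TPM + 1), filtered or not, they were 0.14 for Cdk1, -0.16 for Anln and -0.15 for Pttg1, and on log2(TPM + 0.1) 0.14, -0.17 and -0.15. Without a single library they ranged from -0.55 to 0.012 for Ttk, -0.067 to 0.51 for Bub1, -0.39 to 0.078 for Birc5, -0.68 to 0.0032 for Kif20b, -0.88 to 0.013 for Kif23 and -0.36 to 0.017 for Kif4. The range was -0.034 to 0.15 for Anln, -0.38 to 0.0099 for Ect2, -0.62 to 0.16 for Ube2c, -0.13 to 0.40 for Pttg1 and -0.32 to 0.21 for Top2a.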

Other observations

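Control libraries differed along exon length (the union of a gene's annotated exons) among the 48 genes, and other genes were not examined for this. Spearman's rho between the exon length of a gene and its log2 ratio of Control 2 to Control 1 was -0.54 over 48 genes measured in the same 2 libraries, with Kif20b (-0.66), Cenpf (-0.58) and Cenpe (-0.45) far below 0 and Ube2c (0.20), Ccnb2 (0.038) and Cdc20 (-0.0093) near or above it. Bub1, of middle length, also had a low ratio (-0.55). Between DCKO libraries rho was 0.03. Genes named here were chosen after their values were seen.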
